A study of Mus musculus with 6 samples.

Results

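Genes of the interferon response and of antigen presentation were examined in pancreatic islets of mice given bisphenol A (BPA, a plastics monomer that also acts on oestrogen receptors) and in islets of vehicle controls. The list held 34 genes, chosen by symbol from the platform annotation. Of these, 33 had at least 1 probe set under their own symbol (54 probe sets in all), out of 18193 genes named on the array. Isg15 was annotated only together with another gene and was not analysed here. Each gene was represented by its brightest probe set, the one with the highest mean over the 6 arrays. A filter at a mean of 6.60 (log2), the midpoint of all probe sets, set which were tested, and 28 of the 33 genes passed this filter.

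The BPA group and the control group each held 3 islet samples of OF1 male mice, an outbred stock, aged 10 weeks, and each sample was hybridised to its own Affymetrix array. For the BPA group the series' design gives 100 µg/kg/day under the skin in injections of 50 µg/kg for 4 days, the treatment protocol gives 2 days at that daily dose, and the source names give 1 nM for 48 hours. The controls received 100 µL of corn oil, and islets were isolated 16 hours after the last injection, per the design. Each replicate stands for 3 experiments per the design, the labels used here give no count of animals, and p-values measure the spread between these samples.

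Interferons are secreted when a cell senses viral nucleic acid. They bind receptors whose Janus kinases activate STAT factors, and these, with IRF9, switch on genes through the interferon-stimulated response element (ISRE), or, for interferon gamma, through the gamma-activated site (GAS). Among the induced genes are antiviral effectors and the machinery that cuts proteins into peptides, carries them into the endoplasmic reticulum and loads them on MHC class I for display to T cells. In islets, MHC class I and interferon-induced genes are known from type 1 diabetes, where T cells recognise beta cells.

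Beta cell genes were bright on all 6 arrays, with Ins2 between 15.24 and 15.32 on the log2 scale. Acinar genes were bright too and less even, with Cela3b between 13.58 and 15.09. Linear signals of 8 beta cell markers summed to 114343 to 124354 after BPA and 119055 to 119732 in controls. Those of 9 acinar markers summed to 102243 to 208149 after BPA and 53255 to 190046 in controls. The arrays thus also held acinar RNA, unevenly. The 2 replicate 3 arrays stood apart. They scored 36.3 (BPA) and 47.2 (control) along a first principal component that held 55.9% of the variance of tested signals, and the other 4 arrays lay between -37.5 and -3.2. The signal at the 3′ end of the Gapdh control transcript exceeded that at its 5′ end by 2.58 to 2.99 (log2) in BPA arrays and by 3.40 to 3.79 in controls, so this sign of RNA quality separated the groups. Its part in the results was not tested. With 3 arrays per group, precision is limited throughout. In whole islets, fewer cells of a type and less RNA per cell cannot be told apart.

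Sequences near the starts of some of the genes described below are shown for the elements through which interferon is known to act. Xaf1 and Ifitm1 were among the genes whose windows had no match to either element. RefSeq start site windows (250 bases before to 50 after the start, GRCm38.p6) were found for 27 of the 34 genes. An ISRE core, written here as GAAA, any 2 bases and GAAA again, was searched on both strands. It stood in the windows of 15 of the 27 genes (55.6%) and of 3.99% of 27025 genes. The GAS core TTCNNNGAA, which reads the same on both strands, stood in 8 of the 27 (29.6%) and in 9.55% of all genes. A match is a description of the sequence and does not show that a factor binds there.

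In the lines that follow capitals mark these matches. Ifit1, chr19:34640739-34640888, plus strand, 150 bases up to the start, has ISRE cores in reverse orientation beginning at positions -104 and -85.
Ifit1: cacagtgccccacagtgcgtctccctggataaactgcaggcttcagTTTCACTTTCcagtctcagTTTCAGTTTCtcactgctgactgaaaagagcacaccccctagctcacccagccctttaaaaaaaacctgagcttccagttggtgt
Ifitm3, chr7:141010716-141010742, minus strand, has 2 ISRE cores that begin at positions 3 and 20 after its start, with a GAS core (not in capitals) overlapping between them.
Ifitm3: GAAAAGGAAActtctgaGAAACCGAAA
Ifitm2, chr7:140955990-140956015, minus strand, has 1 ISRE core at position -46, with the same letters as the first of Ifitm3.
Ifitm2: accaacagGAAAAGGAAAttgctaga
Psmb8, chr17:34198045-34198194, plus strand, has no ISRE core in its window and a GAS core at position -97.
Psmb8: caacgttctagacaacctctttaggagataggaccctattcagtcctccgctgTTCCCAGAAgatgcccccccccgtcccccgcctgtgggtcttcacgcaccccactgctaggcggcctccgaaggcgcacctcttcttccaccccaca

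The level of the genes in islets came first. Of the 33 genes 5 lay below the filter on their brightest probe set. These 5 were Irf7, Dhx58, Bst2, Mx2 and Eif2ak2. The median gene was brighter than 71.9% of all probe sets, against 66.0% for the median of all named genes. Just inside the filter stood Mx1, with a mean of 6.78, and just outside it Bst2, with 6.58. The signals of different probe sets depend on their probes, so the order of genes by signal is not an order of transcript numbers.

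**Figure D1:**
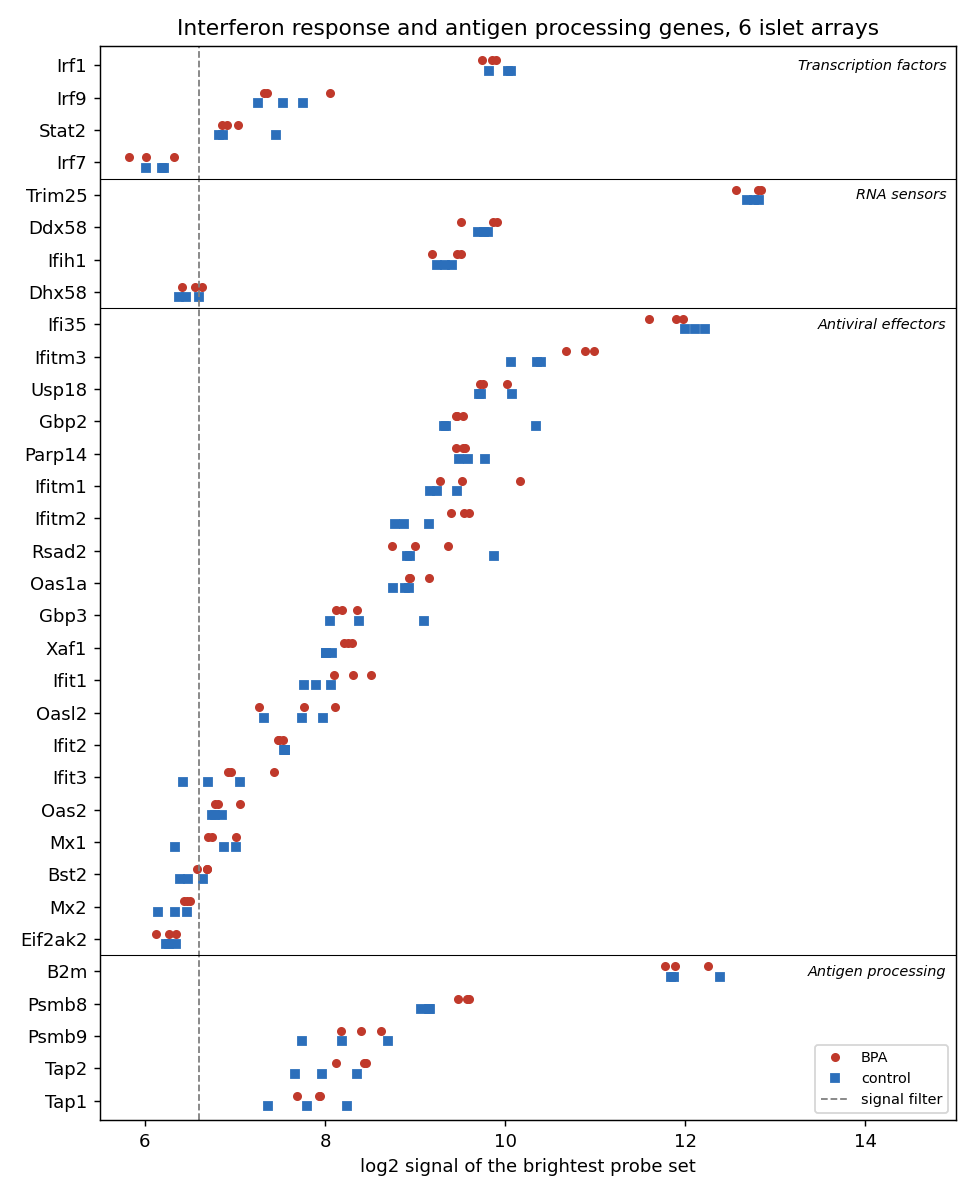
Log2 signal (horizontal axis) of the brightest probe set of each of the 33 genes (rows, grouped by role) in the 3 BPA arrays (circles, upper of each row) and the 3 control arrays (squares). The dashed line is the filter at 6.60. Circles lie to the right of all squares for Ifitm2, Ifitm3, Ifit1 and Psmb8, while control replicate 1 stands off to the right for Gbp2 and Gbp3.

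In the comparison of BPA with control, none of the 28 tested genes passed limma's moderated test at an adjusted p under 0.05, as none of the 22518 probe sets did (0%). At an unadjusted p under 0.05 there were 4 genes with higher signal after BPA and 0 with lower signal. Over all 11787 genes tested, 3.98% were higher and 1.36% lower at that threshold. The groups did not overlap for 6 genes with higher signal after BPA and for 2 with lower signal. Those shares were 8.48% and 3.53% of all genes tested, and 8.64% and 3.09% of all named genes, dim ones included. The difference was above 0 for 17 of the 28 genes and for 57.7% of all genes, and its median was 0.053 (log2), against 0.028 for all genes. The share above 0 and the median thus lay close to those of all genes. The counts of genes higher after BPA lay above their background shares, and so did the count of genes lower without overlap. All these counts are small. These genes also had a wider spread over the arrays than the typical gene, as given below, and the part of that spread in the counts was not tested. Of the 28 genes 6 had a difference above the 95th percentile of all genes (0.35) and 2 one below the 5th (-0.26).

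**Figure D2:**
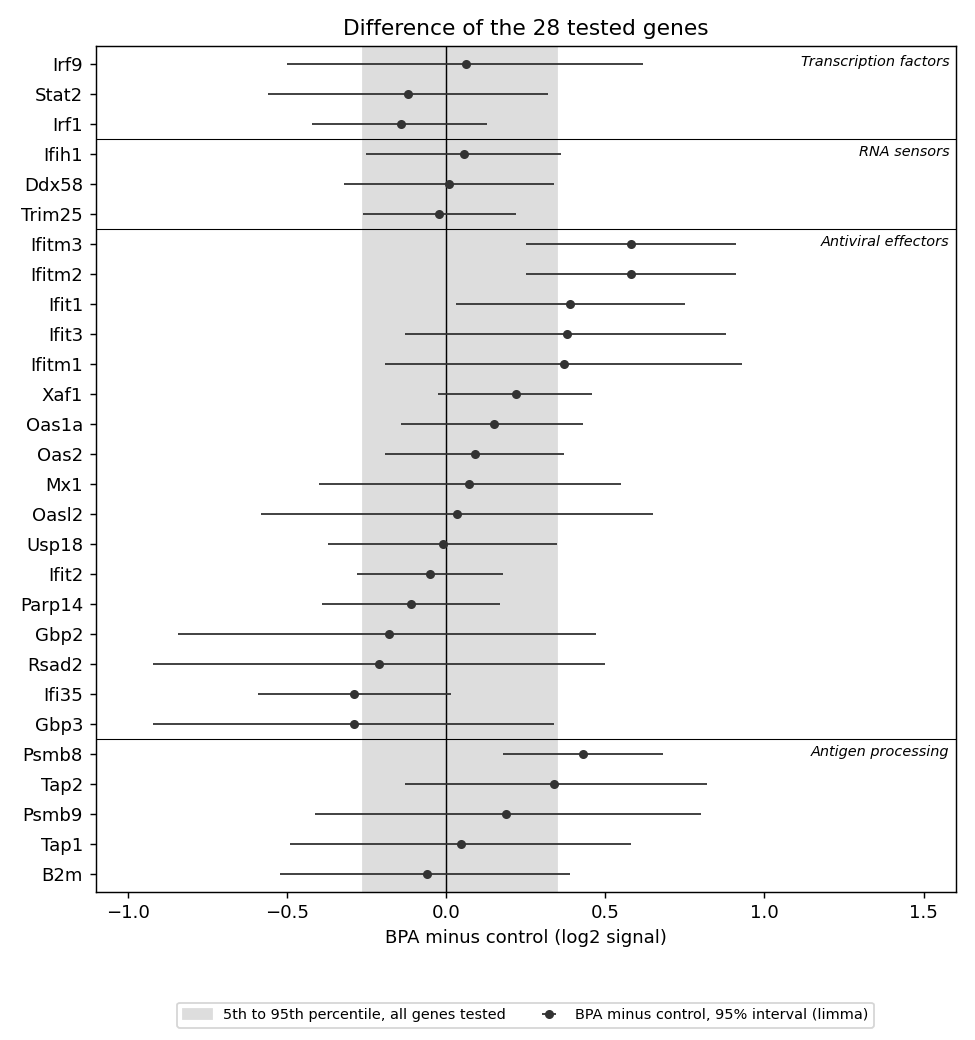
BPA minus control (log2 signal, horizontal axis) for the 28 tested genes by role, with the 95% interval of limma's moderated fit, against the range from the 5th to the 95th percentile of all genes tested (-0.26 to 0.35, grey). The intervals of Ifitm3, Ifitm2, Ifit1 and Psmb8 lie above 0; none passed after adjustment.

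Among the transcription factors, Irf1, which acts downstream of interferon gamma, had the brightest probe set. It read 9.90, 9.74 and 9.85 after BPA and 9.82, 10.03 and 10.06 in controls, a difference of -0.14 ± 0.12 (log2, SE, adjusted p = 0.869). The groups overlapped, since control replicate 1 lay below BPA replicates 1 and 3. STAT2 and IRF9 form the factor that binds the ISRE. Irf9 ranged between 7.32 and 8.06 after BPA and between 7.26 and 7.75 in controls (difference 0.062 ± 0.24, adjusted p = 0.974), and Stat2 between 6.86 and 7.03 after BPA and between 6.82 and 7.45 in controls (difference -0.12 ± 0.19, adjusted p = 0.929). Irf7, which amplifies interferon production, lay below the filter, with 6.05 ± 0.25 in the BPA arrays and 6.13 ± 0.11 in control islets (SD, n = 3 each).

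The genes of cytosolic RNA sensing differed little. Ddx58 encodes RIG-I, which recognises viral RNA ends, and read 9.77 ± 0.22 after BPA and 9.76 ± 0.05 in controls. Ifih1 encodes MDA5, a sensor of long double-stranded RNA, and read 9.39 ± 0.17 after BPA and 9.33 ± 0.09 in control islets (SD, n = 3 each). Trim25, a ubiquitin ligase that activates RIG-I, had the brightest probe set of the list. It read 12.56, 12.84 and 12.81 after BPA and 12.76, 12.68 and 12.82 in controls, with overlapping groups. The platform annotation gives no accession for that probe set, and its suffix (_s_at) marks sets whose probes can match several transcripts. A set with an accession read lower, between 11.72 and 11.93 after BPA and between 11.79 and 11.87 in controls, and differed by -0.038. Dhx58, which encodes the regulator LGP2, was below the filter, with 6.53 ± 0.11 in the BPA arrays and 6.48 ± 0.11 in controls.

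The IFITM proteins sit in membranes and block the fusion of viruses that enter through endosomes. Their genes Ifitm1, Ifitm2 and Ifitm3 lie near each other on chromosome 7, and all 3 had higher mean signal after BPA. Ifitm3 read 10.99, 10.68 and 10.89 after BPA and 10.40, 10.07 and 10.35 in controls. All BPA arrays lay above all control arrays, and the difference was 0.58 ± 0.14 (log2, SE, 95% interval 0.25 to 0.91), a ratio of 1.49. Ifitm2 read 9.54, 9.40 and 9.60 after BPA and 8.78, 8.88 and 9.15 in controls, again without overlap. Its difference was also 0.58 ± 0.14, and both genes had an unadjusted p of 0.0044 and an adjusted p of 0.655 in limma. Of all genes tested, 99.1% had a lower difference than either. The cores printed for Ifitm3 and Ifitm2 share the letters of their first match, and the degree to which their probes can read each other's transcript was not tested.

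Ifitm1 moved less evenly. It read 10.17, 9.28 and 9.52 after BPA and 9.46, 9.16 and 9.24 in controls. BPA replicate 1 was the highest of all arrays and BPA replicate 2 lay within the control range, so the groups overlapped (difference 0.37 ± 0.24, adjusted p = 0.839). Without BPA replicate 1 the difference of Ifitm1 was 0.114. BPA replicate 1 was also the highest array for 8 of 10 tested macrophage and myeloid markers and for 6 of 8 stellate cell and fibroblast markers. Of all genes tested it was the highest for 22.5%. The linear signals of the myeloid markers summed to 6238 to 10628 after BPA and 5937 to 8060 in controls, and those of the stellate cell markers to 8606 to 16009 after BPA and 5907 to 11217 in controls. In each list BPA replicate 1 held the highest sum, and Cd68, Itgam and Mrc1 of the myeloid list were below the filter. Of the acinar markers 9 of 9 were highest in BPA replicate 1, with sums of 102243 to 208149 after BPA and 53255 to 190046 in controls. Across the groups, 8 of 10 tested myeloid markers and 9 of 9 acinar markers lay above 0, against 57.7% of all genes tested. The complement gene C1qa read 9.39, 9.32 and 9.0 after BPA and 8.60, 8.88 and 8.79 in controls (difference 0.48, adjusted p = 0.674), and Cd68, below the filter, read 7.75, 6.58 and 6.74 after BPA and 6.14, 5.96 and 5.75 in controls, both without overlap. The groups overlapped for every other gene of the myeloid list. The 2 tested myeloid markers below 0 were C1qb, another complement gene, with a difference of -0.081, and Ptprc, with -0.045. The part of these cells in the values of the Ifitm genes was not tested. For Ifitm2 and Ifitm3 the differences without BPA replicate 1 were 0.563 and 0.510.

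**Figure D3:**
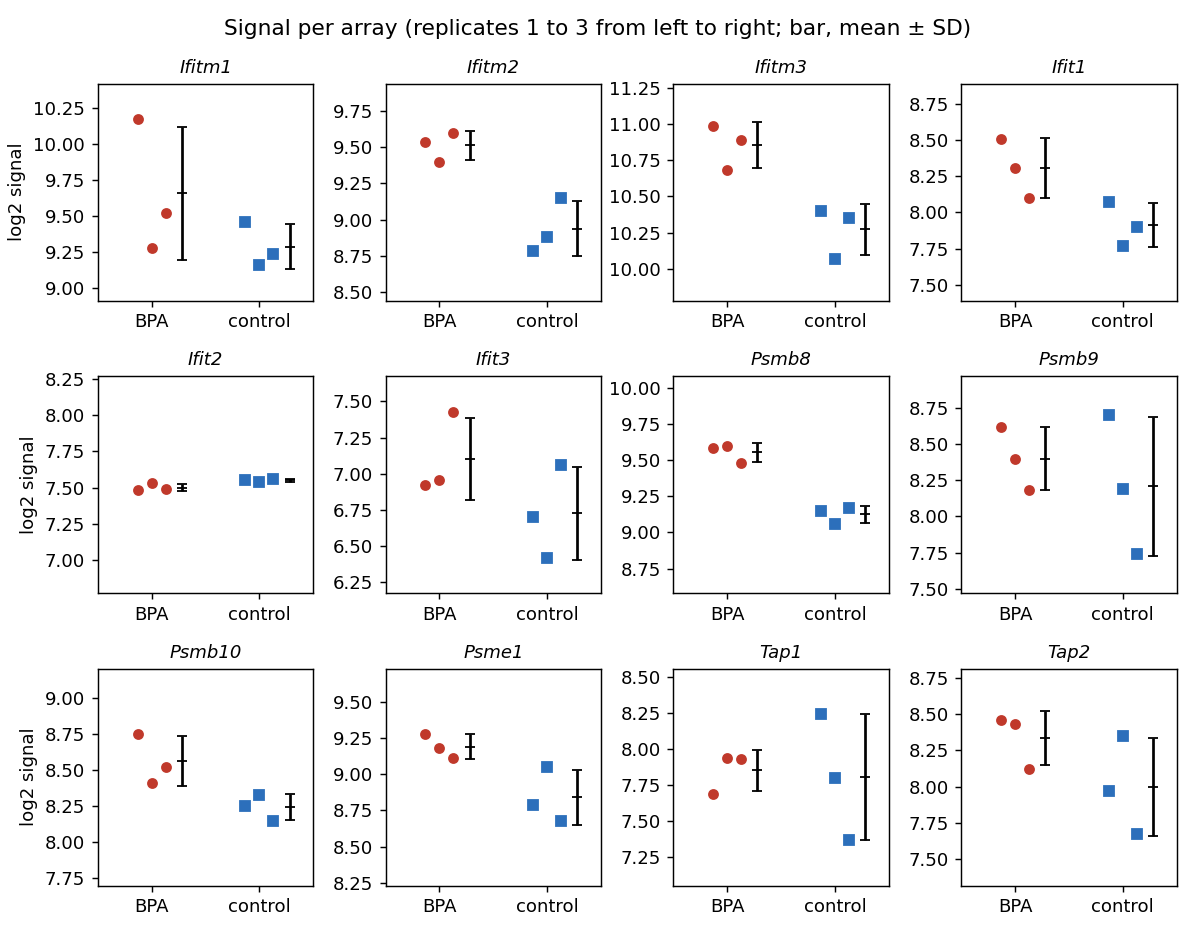
Log2 signal (vertical axes, each spanning 1.5) of 12 genes of the IFITM, IFIT and antigen processing families, with replicates 1 to 3 from left to right in the BPA group (circles) and the control group (squares), and the mean ± SD beside each group. Groups are apart with BPA higher for Ifitm2, Ifitm3, Ifit1, Psmb8, Psmb10 and Psme1, and with BPA lower for Ifit2, whose 6 arrays span 0.08.

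The IFIT proteins bind foreign RNA and stop its translation. Their genes lie together on chromosome 19 and are classical targets of the ISRE. Besides the pair of cores printed for Ifit1, Ifit3 had ISRE cores at -156 and -122. The windows of Ifit2 held no ISRE core and a GAS core at -241. Ifit1 read 8.51, 8.31 and 8.10 after BPA and 8.07, 7.77 and 7.90 in controls. All BPA arrays were higher than all control arrays, though BPA replicate 3 by only a small step (difference 0.39 ± 0.15, 95% interval 0.033 to 0.75, unadjusted p = 0.0364, adjusted p = 0.747). Ifit3 read 6.92, 6.96 and 7.43 after BPA and 6.70, 6.42 and 7.06 in controls. Control replicate 3 lay above BPA replicates 1 and 2, and in both groups replicate 3 was the highest array (difference 0.38 ± 0.21, adjusted p = 0.829). Ifit2 was the steadiest gene of the list. It read 7.48, 7.53 and 7.49 after BPA and 7.55, 7.54 and 7.56 in controls, so that its BPA arrays were all lower by a difference of -0.049 ± 0.098 (adjusted p = 0.944). The sign of the difference was thus not shared by the 3 neighbours, and none passed the test.

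Oligoadenylate synthetases sense double-stranded RNA and make a messenger that activates RNase L, which cleaves single-stranded RNA. Oas1a read 8.94, 8.93 and 9.15 after BPA and 8.93, 8.75 and 8.89 in controls. Its groups did not overlap, but the closest arrays were level to the second decimal (difference 0.15 ± 0.12, adjusted p = 0.867). Oas2 differed by 0.091 ± 0.12 and Oasl2 by 0.034 ± 0.26, both with overlapping groups. Xaf1, which encodes an interferon-induced protein that promotes cell death, read 8.30, 8.25 and 8.21 after BPA and 8.01, 8.01 and 8.08 in controls. All BPA arrays were higher, and the difference of 0.22 ± 0.10 had an unadjusted p of 0.0705 and an adjusted p of 0.793. A dimmer probe set of Xaf1, with a mean of 4.74, differed by -0.090, and the mean of both sets by 0.065.

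Mx1 and Mx2 encode dynamin-like proteins that trap viral particles. Mx1 read 6.82 ± 0.17 after BPA and 6.74 ± 0.36 in controls, and Mx2, below the filter, 6.47 ± 0.04 after BPA and 6.31 ± 0.16 in control islets (SD, n = 3 each). Rsad2, which encodes viperin, an enzyme that makes a chain-terminating nucleotide, had the widest range of the list. It read 8.74, 9.0 and 9.37 after BPA and 8.94, 8.91 and 9.88 in controls. Both replicate 3 arrays were the highest, and the groups overlapped (difference -0.21 ± 0.30, adjusted p = 0.920). Without control replicate 3 the difference was 0.111, and without both replicate 3 arrays it was -0.056. A dimmer probe set of Rsad2, below the filter, read 5.81, 6.12 and 5.92 after BPA and 6.35, 6.61 and 6.55 in controls, lower in all BPA arrays by a difference of -0.55.

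Usp18, which encodes the protease that removes ISG15 from proteins and dampens receptor signalling, read 9.83 ± 0.16 after BPA and 9.84 ± 0.21 in controls. Parp14, an ADP-ribosyltransferase gene, read 9.51 ± 0.05 after BPA and 9.62 ± 0.15 in control islets (SD, n = 3 each). Bst2, which encodes tetherin, a protein that holds budding virus at the cell surface, was below the filter, with 6.65 ± 0.06 in the BPA arrays and 6.50 ± 0.12 in controls, as was Eif2ak2, the gene of the RNA-activated kinase PKR, at 6.25 ± 0.12 after BPA and 6.28 ± 0.06 in controls.

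Ifi35 had 3 probe sets above the filter, and they disagreed in sign. Its brightest set read 11.97, 11.60 and 11.90 after BPA and 12.22, 12.11 and 12.0 in controls. All BPA arrays were lower, by -0.29 ± 0.13 (adjusted p = 0.791). A second set read 9.97, 9.78 and 9.79 after BPA and 10.16, 10.21 and 10.02 in controls, also without overlap (difference -0.28 ± 0.11). The third read 8.80, 8.67 and 8.70 after BPA and 8.45, 8.63 and 8.51 in controls. On that set all BPA arrays were higher, by 0.19 ± 0.11. It is the one of the 3 that the annotation ties to an accession, and the others carry the suffixes _s_at and _x_at, so the direction for this gene depends on the probe set. The other gene with tested probe sets of opposite sign was B2m.

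Proteins displayed by MHC class I are first cut by the proteasome, whose interferon-induced form, the immunoproteasome, holds the subunits PSMB8, PSMB9 and PSMB10. Psmb8 read 9.58, 9.60 and 9.48 after BPA and 9.15, 9.06 and 9.17 in controls. The groups lay apart, with an SD of 0.06 in each, and the difference was 0.43 ± 0.10 (log2, SE, 95% interval 0.18 to 0.68), a ratio of 1.35. Its unadjusted p was 0.00482 and its adjusted p 0.655, and 97.3% of all genes had a lower difference. A dimmer probe set of Psmb8, below the filter, differed by -0.081.

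Psmb9 lies beside Tap1 on chromosome 17, head to head. The 225 bases between their starts, chr17:34187331-34187555, plus strand, are shown because both genes are read outwards from them. Neither core stood in this stretch, which says only that these letters are not in it.
Psmb9 and Tap1: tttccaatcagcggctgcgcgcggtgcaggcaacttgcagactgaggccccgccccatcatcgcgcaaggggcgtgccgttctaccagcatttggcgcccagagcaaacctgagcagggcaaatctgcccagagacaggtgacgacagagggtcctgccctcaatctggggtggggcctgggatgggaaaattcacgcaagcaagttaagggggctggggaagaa
Psmb9 read 8.62, 8.40 and 8.18 after BPA and 8.70, 8.19 and 7.74 in controls, with a difference of 0.19 ± 0.25 (adjusted p = 0.913). Tap1, which encodes a subunit of the peptide transporter, read 7.69, 7.94 and 7.93 after BPA and 8.24, 7.80 and 7.37 in controls, with a difference of 0.048 ± 0.23 (adjusted p = 0.980). In both genes control replicate 1 was the highest array and control replicate 3 the lowest, so that all BPA arrays lay inside the control range. Tap2, the gene of the other subunit, read 8.46, 8.43 and 8.12 after BPA and 7.97, 8.35 and 7.67 in controls, overlapping through control replicate 2 (difference 0.34 ± 0.20, adjusted p = 0.832).

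B2m encodes beta-2-microglobulin, the light chain of every MHC class I molecule. It read 12.25, 11.89 and 11.77 after BPA and 12.39, 11.87 and 11.84 in controls, a difference of -0.061 ± 0.19 (adjusted p = 0.967). Replicate 1 was the highest array in both groups. Its second probe set read 11.27, 11.22 and 10.81 after BPA and 11.13, 10.69 and 10.72 in controls, a difference of 0.25 ± 0.18, with overlapping groups.

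The pathway genes outside the list were 96 named genes, 73 of them tested, and 0 passed at an adjusted p under 0.05. At an unadjusted p under 0.05 in limma, 4 were higher and 1 was lower after BPA, against 3.98% and 1.36% of all genes tested. In the list of MHC and peptide loading 11 of 17 genes lay above 0, with a median difference of 0.066. For this list and those below, the background is all genes tested, with 57.7% above 0 and a median of 0.028. On brightest probe sets, the 2 genes with the smallest p belonged to the proteasome. A dimmer set of Tapbp, above the filter, had a smaller p and differed by 0.36 ± 0.11 without overlap, but the brightest set of Tapbp differed by -0.16 ± 0.10. Psme1, which encodes a subunit of the PA28 cap that opens the proteasome, read 9.28, 9.18 and 9.11 after BPA and 8.79, 9.05 and 8.68 in controls (difference 0.35 ± 0.13, adjusted p = 0.746). Psmb10 read 8.75, 8.41 and 8.52 after BPA and 8.25, 8.33 and 8.15 in controls (difference 0.32 ± 0.13, adjusted p = 0.769). Both had groups that did not overlap, as Psmb8 had and Psmb9 had not.

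The heavy chain genes H2-K1 and H2-D1 went the other way on their brightest sets, with -0.24 ± 0.29 and -0.21 ± 0.29. H2-K1 read 12.28, 12.07 and 11.45 after BPA and 12.34, 12.52 and 11.65 in controls. The lowest array of each group was replicate 3, as it was for H2-D1, which read 12.84, 12.69 and 12.0 after BPA and 12.88, 13.08 and 12.22 in controls. These are near-identical and variable genes, and probe sets of 1 can read another. Cd74, the chaperone of MHC class II, read 9.07, 9.31 and 9.42 after BPA and 9.09, 8.99 and 9.44 in controls.

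Of the 6 interferon genes named on the array, 0 lay above the filter, and the brightest, Ifna1, at the edge of the filter, read 6.66 ± 0.04 after BPA and 6.55 ± 0.12 in control islets (SD, n = 3 each). Of the 8 tested receptor and kinase genes 5 lay above 0, and 0 had groups apart. Ifnar1, a chain of the type I receptor, read 8.37, 8.19 and 7.94 after BPA and 8.09, 7.92 and 7.66 in controls (difference 0.28 ± 0.17, adjusted p = 0.832). The other chain, Ifnar2, differed by 0.053 ± 0.11, the interferon gamma receptor genes Ifngr1 and Ifngr2 by 0.10 ± 0.13 and 0.016 ± 0.11, and the kinase genes Jak1 and Tyk2 by 0.069 ± 0.35 and -0.011 ± 0.16. Jak1 read 9.52 and 9.58 in the replicate 3 arrays of BPA and control and at least 10.35 in the others.

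The sensors and adaptors had 4 of 10 genes above 0 (median -0.061). A dimmer set of Zc3hav1, at the edge of the filter, differed by -0.71 ± 0.28 without overlap, and its brightest set by -0.050 ± 0.20. Tlr9, a sensor of unmethylated DNA, read 7.03, 7.17 and 7.13 after BPA and 6.91, 6.77 and 6.86 in controls, without overlap (difference 0.26 ± 0.10, adjusted p = 0.748), and the adaptor gene Myd88 differed by -0.19 ± 0.15. The other transcription factors and negative regulators had 2 of 7 above 0 (median -0.095). Socs3, a feedback inhibitor of Janus kinases, read 13.13 ± 0.23 after BPA and 13.36 ± 0.20 in controls, and Irf2bp2, a corepressor gene, differed by -0.21 ± 0.13.

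Of the other interferon-induced genes 15 of 31 lay above 0 (median -0.009). A dimmer set of Ifi27, above the filter, differed by 0.63 ± 0.13 without overlap (limma, unadjusted p = 0.00187, adjusted p = 0.655). The brightest set of Ifi27 differed by 0.19 ± 0.11, with overlapping groups. Trim30a, which encodes a ubiquitin ligase that restrains inflammatory signalling in mice, read 8.58, 8.14 and 7.87 after BPA and 9.02, 8.79 and 8.86 in controls. All BPA arrays were lower (difference -0.69 ± 0.20, unadjusted p = 0.00999, adjusted p = 0.674), while its dimmer set, below the filter, differed by 0.16. Lgals9, which encodes the lectin galectin 9, read 7.79, 7.26 and 6.82 after BPA and 6.47, 6.90 and 6.46 in controls (difference 0.68 ± 0.26, adjusted p = 0.746). BPA replicate 1 was its highest array, and BPA replicate 3 lay within the control range. Without BPA replicate 1 the difference of Lgals9 was 0.433.

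Over the 6 arrays the 28 genes had a wider spread than the typical gene. The median distance between a gene's highest and lowest array was 0.66 (log2), against 0.47 for all genes tested, and 7 of the 28 exceeded 0.91, the 90th percentile of all genes. The means of the groups' arrays overlapped. The mean of the 28 genes, relative to each gene's mean over the arrays, was 0.11, 0.02 and 0.00 in BPA replicates 1 to 3 and 0.09, -0.14 and -0.08 in control replicates 1 to 3. The highest array was BPA replicate 1, 2 or 3 for 8, 4 and 3 of the 28 genes and control replicate 1, 2 or 3 for 8, 1 and 4. Over all genes tested the shares were 22.5%, 22.6% and 14.2% for the BPA arrays and 15.8%, 10.7% and 14.1% for the control arrays. The lowest array was BPA replicate 1, 2 or 3 for 4, 3 and 3 genes and control replicate 1, 2 or 3 for 3, 10 and 5, against 13.8%, 10.1% and 23.5% of all genes for the BPA arrays and 15.4%, 15.5% and 21.7% for the control arrays.

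**Figure D4:**
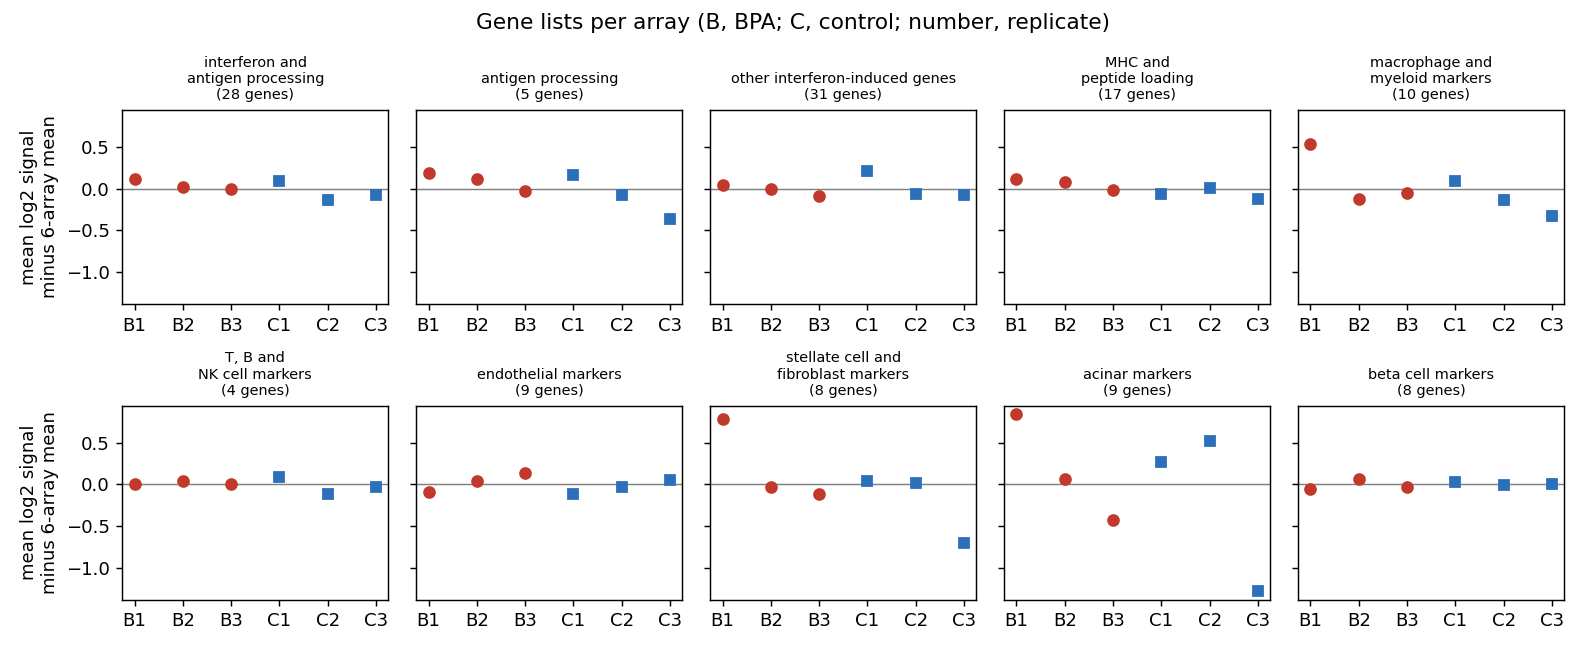
Mean over the tested genes of each list of the log2 signal minus that gene's mean over the 6 arrays (vertical axis), per array, for BPA (circles, B1 to B3) and control (squares, C1 to C3). The 28 genes stay between -0.14 and 0.11, while stellate cell and acinar markers spread from 0.79 and 0.84 in BPA replicate 1 to -0.71 and -1.28 in control replicate 3.

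Genes of the guanylate-binding and immunity-related GTPase families were high in control replicate 1. Gbp2 and Gbp3 encode guanylate-binding proteins, which coat intracellular pathogens and are strongly induced by interferon gamma. Gbp2 read 9.45, 9.47 and 9.53 after BPA and 10.34, 9.34 and 9.32 in controls. Gbp3 read 8.12, 8.36 and 8.19 after BPA and 9.10, 8.05 and 8.38 in controls. In both, control replicate 1 stood 0.814 and 0.716 (log2) above the next array, and the 5 other arrays spanned 0.207 and 0.334. The differences of -0.18 ± 0.28 and -0.29 ± 0.26 (adjusted p = 0.925 and 0.880) rested on that array, and without it they were 0.153 and 0.004.

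The other guanylate-binding and immunity-related GTPase genes of the pathway list, grouped by family after their values were seen, had the same highest array. With Gbp2 and Gbp3, whose values prompted the grouping, they made 9 genes, and control replicate 1 was highest for all 9. Iigp1 read 8.80, 8.77 and 8.81 after BPA and 10.89, 8.58 and 9.03 in controls, so that control replicate 1 stood 1.858 above the next array. Gbp7 read 9.16, 9.11 and 8.97 after BPA and 10.17, 9.50 and 9.0 in controls, and Igtp 9.72, 9.78 and 9.62 after BPA and 10.45, 9.70 and 9.39 in controls. Centred on each gene's own mean, the 9 averaged -0.10, -0.14 and -0.21 in BPA replicates 1 to 3 and 0.80, -0.15 and -0.21 in control replicates 1 to 3. Their median difference between the groups was -0.291, with 9 of 9 below 0, and 0.007 without control replicate 1, with 6 of 9 above 0. Irgm1 took part least, with 8.76 in BPA replicate 1 and 8.78 in control replicate 1.

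Control replicate 1 was the highest array for 8 of the 28 genes of the list, and for 13 of the 31 other interferon-induced genes tested, against 15.8% of all genes. Outside the 9 GTPase genes it was the highest for 6 of 26 genes of the list and for 6 of 24 of the others. Those of the list were Stat2, with 7.45 there and at most 7.03 elsewhere, B2m, Psmb9, Tap1, Parp14 and Ifi35. Other genes were not highest there. Mx1 and Mx2 encode GTPases of another family. Mx1 read 6.88 there and 7.01 in control replicate 3, and Mx2, below the filter, had its lowest value there, 6.14. Ifit1 read 8.07 there and up to 8.51 after BPA, and Irf1 read 9.82, its lowest control value. T and NK cells are a known source of interferon gamma. Among the markers of T, B and NK cells, 4 of 9 named genes passed the filter. Their linear signals summed to 542 to 554 after BPA and 501 to 569 in controls, with the highest sum in control replicate 1. Control replicate 1 was the highest array for 7 of the 9 named genes and for 2 of the 4 that passed. The T cell genes Cd3e and Cd8a, which passed, were higher elsewhere. Cd3e read 7.02 in control replicate 1 and 7.06 in control replicate 3, and Cd8a read 7.25 in control replicate 1 and 7.47 in BPA replicate 2. Cd3g, Cd3d, Cd79b, Ms4a1 and Nkg7 were below the filter. Of these the B cell gene Ms4a1 read 4.56, 4.82 and 4.91 after BPA and 6.69, 4.68 and 4.48 in controls, and Cd3d read 6.33 in control replicate 1 against 5.54 to 6.06 elsewhere. The Ifng gene itself lay between 4.02 and 4.31 on all arrays. The part of these cells in the values of the GTPase genes was not tested.

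**Figure D5:**
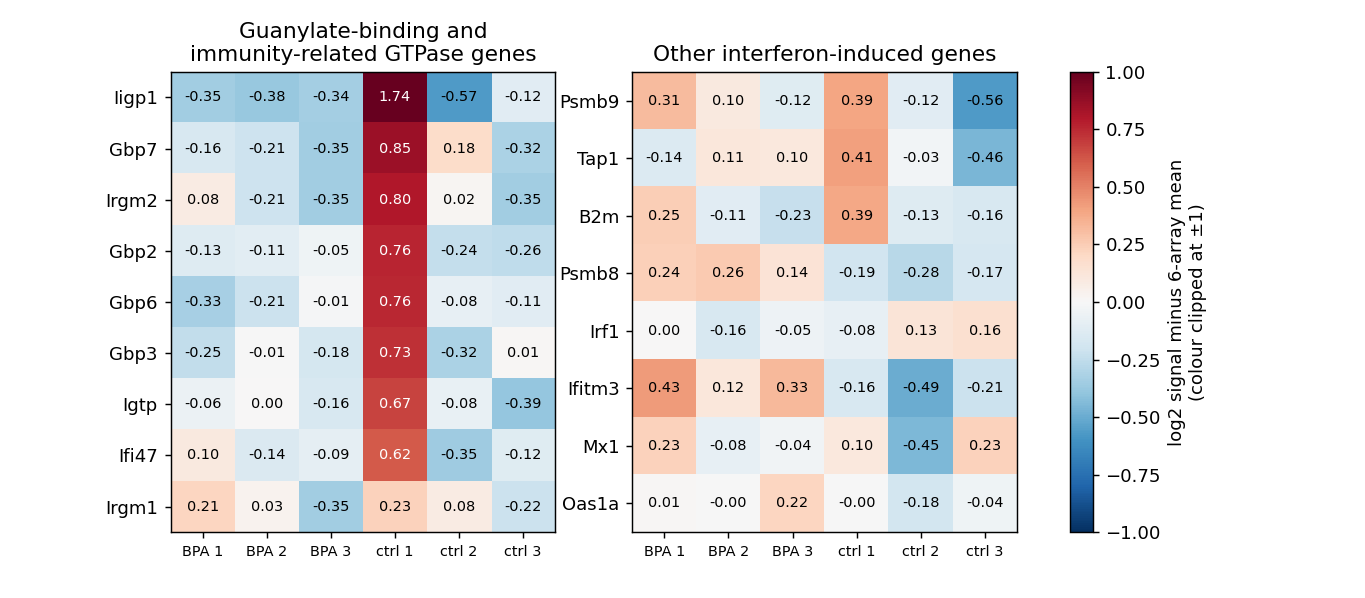
Log2 signal minus the mean of the 6 arrays (numbers and colour) for 9 guanylate-binding and immunity-related GTPase genes and, for comparison, 8 other interferon-induced genes chosen after their values were seen. Control replicate 1 (ctrl 1) reads 0.23 to 1.74 above the mean for these 9 genes, and -0.19 to 0.41 for the others, which include Mx1, a GTPase gene of another family.

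The regions upstream of 4 of the 9 GTPase genes are shown for the matches in them. Of the others, Ifi47 had a window with neither core, and Iigp1 and Gbp6 had no window. Irgm1, which took part least, had ISRE cores at -30 and -24, and Gbp7 had an ISRE core at -53. Gbp2, chr3:142620513-142620662, plus strand, has an ISRE core at position -59, and Gbp3, chr3:142559866-142560015, plus strand, 2 overlapping cores at -45 and -39. The printed stretch of Gbp3 ends upstream of the start from which its positions are counted. Igtp, chr11:58199406-58199555, plus strand, and Irgm2, chr11:58214827-58214976, plus strand, each have a GAS core followed closely by an ISRE core, at -45 and -34 for Igtp and at -75 and -64 for Irgm2.
Gbp2: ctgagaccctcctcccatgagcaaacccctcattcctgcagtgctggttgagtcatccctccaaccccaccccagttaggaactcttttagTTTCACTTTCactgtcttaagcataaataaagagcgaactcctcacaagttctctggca
Gbp3: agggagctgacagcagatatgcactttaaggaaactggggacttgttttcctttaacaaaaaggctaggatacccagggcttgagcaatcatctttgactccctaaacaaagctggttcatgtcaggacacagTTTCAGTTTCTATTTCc
Igtp: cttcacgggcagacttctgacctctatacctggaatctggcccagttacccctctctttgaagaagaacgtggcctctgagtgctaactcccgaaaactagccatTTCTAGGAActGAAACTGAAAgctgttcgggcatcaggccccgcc
Irgm2: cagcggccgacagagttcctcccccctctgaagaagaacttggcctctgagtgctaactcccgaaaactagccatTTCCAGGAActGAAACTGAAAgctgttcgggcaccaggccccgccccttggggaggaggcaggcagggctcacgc
Igtp and Irgm2 are neighbours on chromosome 11 with similar upstream sequence, and both were highest in control replicate 1, where Irgm2 read 9.89 against 8.74 to 9.17 in the other 5 arrays.

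Both replicate 3 arrays lay below the other 4 for 5 of the 28 genes (Stat2, Ddx58, B2m, Psmb9 and Oasl2) and above them for 2 (Rsad2 and Ifit3). Over all tested probe sets this held for 21.3% below and 14.6% above. With both replicate 3 arrays left out, the differences of the genes with groups apart were 0.601 for Ifitm3, 0.642 for Ifitm2, 0.487 for Psmb8, 0.488 for Ifit1, 0.264 for Xaf1, 0.092 for Oas1a, -0.380 for Ifi35 and -0.038 for Ifit2.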

How the data were processed

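The deposited table gives log2 signals of 45101 probe sets on 6 arrays. The submitters' processing notes name MAS5 without a version or role, and neither probe summary nor scaling is described in the labels. Medians per array lay between 6.55 and 6.65, and the values were used as deposited, without detection calls. The lowest value lay between 2.95 and 3.04 on every array, a narrower low end than MAS5 signals usually have, so the summary method is unknown, and dim signals and fold sizes depend on it. After 64 array controls were set aside, 34945 probe sets had 1 gene symbol, 932 several and 9160 none, and 34741 matched the reference gene table.

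The 2 groups were compared in limma 3.58.1 under R 4.3.3, by a two-sided moderated test (eBayes, trend on), with p-values adjusted after Benjamini and Hochberg over the 22518 probe sets above the median signal and a threshold of 0.05. The script was tested on simulated data. Every gene of the list is given. All 6 values are printed for genes whose groups did not overlap, the 6 with the smallest p, the 5 with the widest range, the 3 brightest and those of antigen processing. Of other pathway lists the 2 genes with the smallest p on their brightest probe set and fixed receptor, kinase and MHC genes were named. The GTPase genes, the further H2 probe sets, the dimmer sets of Ifi27, Tapbp and Zc3hav1 and the marker genes given singly were chosen after their values were seen. Members, lists and tests were chosen with earlier results of these data known. Replicate numbers were taken from the titles and not treated as pairs. Figures were drawn with matplotlib 3.10.9.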

Additional observations from a re-analysis of the deposited data

How the results depend on the processing

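With 6 arrays and no gene past the threshold, single differences are limits more than findings. Over 19 alternatives, the counts of genes and probe sets past an adjusted p of 0.05 stayed at 0. Of the 58 genes followed, 32 never turned sign. Among these 32 were 4 genes with groups apart, with 0.476 to 0.686 for Ifitm3 and Ifitm2, 0.174 to 0.487 for Psmb8 and 0.292 to 0.496 for Ifit1. Since their groups did not overlap, leaving arrays out could not turn the sign of these 4. Changes of the filter, the moderation or the block leave a difference as it is. Their kept direction is thus no separate support. The smallest adjusted p of these 4 over the alternatives was 0.196 and the largest 0.999. Deviations of same-numbered arrays from their group means correlated at 0.476, 0.078 and 0.706 for replicates 1 to 3, and 4 of 6 arrays correlated best with their own number. Same-numbered arrays thus shared part of their variation, least for replicate 2, and the main test left it in the spread. The titles give the number only as that of a biological replicate, and the main test did not take the numbers as pairs. With the number as a replicate block, 3042 probe sets had an unadjusted p under 0.05, against 1458 without it, and 8 of the 28 genes, against 4. The block cannot move a difference in this balanced design.

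The median of the 28 genes ran from 0.005 to 0.149 with each array left out, the highest without control replicate 1, and with the filter at the 75th percentile the 15 genes that passed had a median of -0.009. Small differences turned sign. Under median centring Usp18 gave 0.013, Trim25 0.001 and Tyk2 0.011. Under cyclic loess Ddx58 gave -0.012, Oasl2 -0.009 and Ifngr2 -0.023. Without both replicate 3 arrays Ifih1 gave -0.022, Tap1 -0.204 and Tyk2 0.101. When all probe sets of a gene were averaged, B2m gave 0.097, Trim25 0.003, Tyk2 0.013, H2-D1 0.268, H2-K1 0.022, Jak1 -0.112 and Ifnar1 -0.055, and Xaf1 0.065, against 0.22 on its brightest set. Ifi35 gave 0.192 on its brightest set without the suffix _s_at or _x_at, an alternative chosen after seeing the data.

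With each array left out, these differences of genes above the filter crossed 0: B2m (-0.198 to 0.118), Ddx58 (-0.064 to 0.137), Gbp2 (-0.357 to 0.153), Gbp3 (-0.521 to 0.004), H2-D1 (-0.467 to 0.041), H2-K1 (-0.499 to 0.003), Ifi47 (-0.290 to 0.193), Ifih1 (-0.004 to 0.156), Ifnar2 (-0.016 to 0.116), Ifngr2 (-0.042 to 0.054), Igtp (-0.365 to 0.161), Irf9 (-0.179 to 0.189), Irgm1 (-0.194 to 0.088), Irgm2 (-0.568 to 0.007), Jak1 (-0.208 to 0.409), Mx1 (-0.133 to 0.209), Oasl2 (-0.164 to 0.258), Psmb9 (-0.042 to 0.435), Rsad2 (-0.376 to 0.111), Stat2 (-0.229 to 0.085), Tap1 (-0.167 to 0.267), Trim25 (-0.072 to 0.068), Tyk2 (-0.107 to 0.129) and Usp18 (-0.103 to 0.110). Without turning, other differences moved by over 1.5 times with 1 array left out, and some of them follow. Iigp1 ran from -1.166 to -0.011, Gbp7 from -0.754 to -0.168, Gbp6 from -0.523 to -0.088 and H2-Eb1 from 0.405 to 1.344. Cd74 ran from 0.007 to 0.232, Oas2 from 0.002 to 0.144 and Parp14 from -0.175 to -0.028. Ifitm1 gave 0.114 without BPA replicate 1 and 0.560 without BPA replicate 2. Ifit3 gave 0.215 without BPA replicate 3 and 0.226 without control replicate 2, and Oas1a 0.075 and 0.097 without the same arrays. Ifi35 gave -0.174 without BPA replicate 2. Tap2 gave 0.522 without control replicate 2 and 0.180 without control replicate 3. Ifnar1 gave 0.176 without BPA replicate 1 and 0.162 without control replicate 3. The cause of these shifts was not tested.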

Other observations

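Several genes of the MHC separated the 2 replicate 3 arrays from the other 4. Of 27 tested probe sets with an H2 symbol, 7 differed by more than 1 (log2) between the mean of the replicate 3 arrays and the mean of the others, against 3.74% of all tested probe sets. The widest was a probe set of H2-Ea, which encodes the alpha chain of the class II molecule I-E and is known to be silent in mice of some MHC haplotypes. It read 7.33, 7.30 and 11.18 in BPA replicates 1 to 3 and 7.57, 7.41 and 11.55 in control replicates 1 to 3. The other probe set of H2-Ea read 8.43, 8.62 and 10.60 after BPA and 8.54, 8.59 and 10.90 in controls. H2-Eb1, the gene of the partner chain, read 9.67, 9.79 and 10.61 after BPA and 8.76, 8.59 and 10.47 in controls.

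Some probe sets of H2-D1, a class I gene, went the other way. One of H2-D1 read 11.75, 11.64 and 8.12 after BPA and 10.34, 10.57 and 6.56 in controls, and another read 11.18, 11.01 and 7.58 after BPA and 10.11, 10.11 and 6.09 in controls. Other sets of H2-D1 spread less: its brightest differed by -0.76 between the replicate 3 arrays and the rest. The sets of the class II gene H2-Aa disagreed. One differed by -1.67 between the replicate 3 arrays and the rest, with both replicate 3 arrays lower, and another by 0.66, with both higher. The brightest differed by 0.12 and did not separate them. A set of the class I gene H2-T3 differed by 0.35, with 7.27 in control replicate 3 but 6.67 in BPA replicate 3, within the range of the other arrays. In all, 13 of the 27 sets had both replicate 3 arrays below the other 4 and 4 had both above. Over all tested probe sets these shares were 21.3% and 14.6%, so the count above lay near its background. The 27 sets belong to 13 genes, so they are not separate observations. Comparisons between BPA and control were not called for any of these sets, with differences of -0.234 for the widest set of H2-Ea and 1.349 for the first named set of H2-D1 (adjusted p = 0.985 and 0.889 in limma). The genotype of the animals at the MHC was not tested.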
